A study of Citrus maxima with 6 samples.

Results

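The genes described here are 5 pomelo homologs of a regulator and transporter set that links flavonoid pigmentation with vacuolar acidity. They are Cg5g035630 (best Arabidopsis hit TT8, a bHLH transcription factor), Cg4g018810 (MYB5, an R2R3-type MYB factor), Cg2g009120 (TT12, a vacuolar transporter of the MATE family), Cg1g013420 (AHA10, a P-type proton pump) and Cg9g003400 (TTG1, a WD40-repeat protein). The first 4 were chosen by their gene IDs after their levels in both cultivars were known, so their difference between cultivars is given as a description with no test. Cg9g003400 was taken by annotation, as the 1 gene of the table whose best Arabidopsis hit is TTG1, AT5G24520. They are 5 of the 30123 genes in the deposited table. RNA of ripe sarcocarp, the edible pulp, was sequenced from a pomelo with red sarcocarp, Citrus maxima Merr. var. Tubtim Siam (3 libraries), and from one with white sarcocarp, Citrus maxima (Burm.) Osbeck (3 libraries). The samples are biological repeats, each mixed from several orchard fruits, with no treatment in either group. Each colour is represented by 1 cultivar, so pulp colour and all other differences between the cultivars cannot be told apart.

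In Arabidopsis, MYB, bHLH and WD40 proteins form a complex, called MBW, that switches on late flavonoid genes. In the seed coat TT8 and TTG1 act in this complex to drive proanthocyanidin synthesis, and MYB5 overlaps in function with its usual MYB partner, TT2. TT12 carries proanthocyanidin precursors into the vacuole in exchange for protons, and AHA10 is needed for this accumulation. In petunia petals the related bHLH, MYB and WD40 proteins also acidify the vacuole through P-type pumps on the tonoplast, one of which is close to AHA10. In citrus a TT8 relative, known as Noemi, has been linked to fruit acidity and to pigmentation of flowers and leaves.

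Levels are given as FPKM (fragments per kilobase of transcript, scaled to the mapped fragments of the library), which is scaled for length and can be compared between genes. FPKM sums lay between 812335 and 835575 per library, and 15920 to 16250 genes were above 0. Genes with a mean of 1 FPKM or more in either cultivar entered the tests, 14158 in all. They were compared on log2(FPKM + 0.1) with limma and Benjamini-Hochberg adjustment, red over white, and this scale understates the change of low genes. A call at both thresholds needed an adjusted p of 0.01 or less together with a log2 fold change of 2 or more up or down. Of the tested genes 6.76% met both, 3.11% higher and 3.65% lower in red-sarcocarp pomelo, and 27.5% met the adjusted p alone. FPKM carries no depth, so how precise a value is can be read only from its 3 replicates. Of the 5 genes, 4 passed the filter on low values, and Cg1g013420 did not.

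The 5 genes did not move in the same direction. TT8, TT12, AHA10 and TTG1 homologs had higher FPKM in red-sarcocarp pomelo, while the MYB5 homolog had lower FPKM there. In all 5 the ranges of the red and the white replicates were apart, which was so in 57.7% of the tested genes, 29.4% with every red library above and 28.3% with every red library below. The rule used these values for 4 of the genes, so nothing is read from that count. In pulp, a mixture of cells, a lower level may come from fewer cells of a type or from less RNA per cell, and these cannot be told apart.

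**Figure D1:**
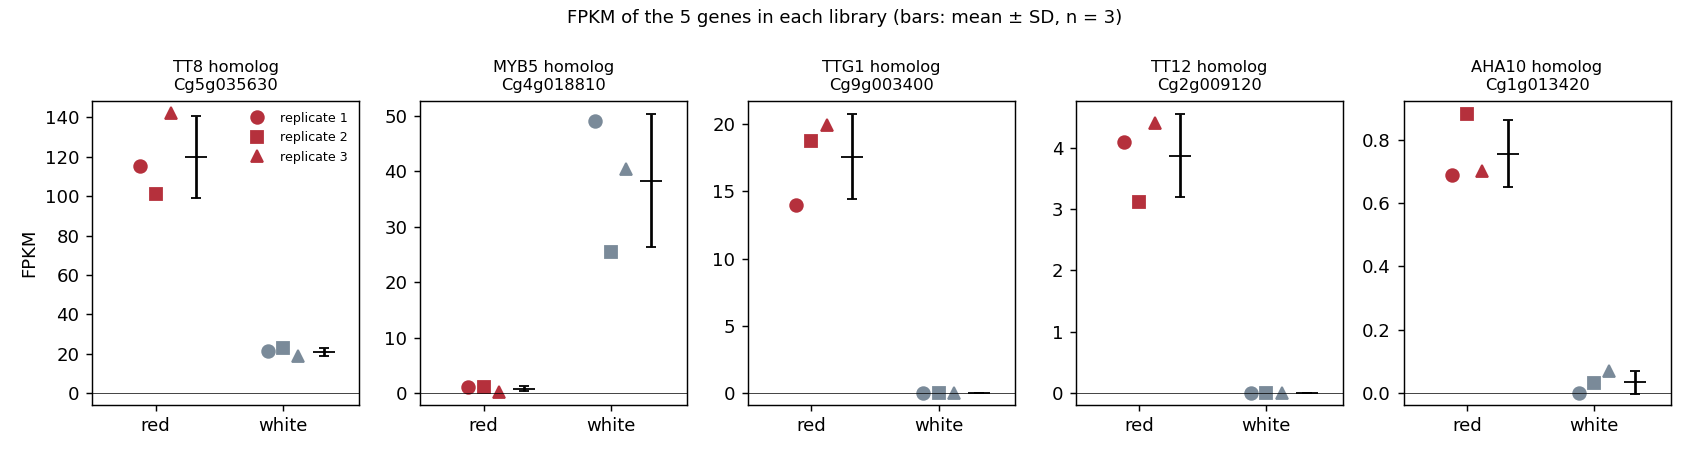
FPKM (vertical axis, linear, its own range in each panel) of the 5 genes in red- and white-sarcocarp libraries, with the marker shape giving the replicate number and the bar the mean ± SD of 3 libraries. The MYB5 homolog is the 1 panel with the white libraries on top, and TTG1 and TT12 homologs are listed at 0 in every white library.

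The bHLH gene Cg5g035630 had 115.48, 101.29 and 142.4 FPKM in the red-sarcocarp libraries, against 21.11, 22.75 and 18.77 FPKM in the white-sarcocarp libraries. Its lowest red library was thus far above its highest white library. The ratio of the means was 5.73, red over white, and the difference 2.50 on the log2 scale. The coefficient of variation was 17.4% among the red and 9.58% among the white libraries. Its mean FPKM exceeded that of 91.1% of the tested genes in red- and of 60.4% in white-sarcocarp pomelo, so the gene was well expressed in both cultivars. The other gene with the same best hit, Cg9g009620, had 0.37 FPKM in red replicate 2 and was listed at 0 in the other libraries. Nearly all measured TT8-type transcript was therefore that of Cg5g035630.

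The MYB gene Cg4g018810 had 0.99, 1.04 and 0.26 FPKM in the red-sarcocarp libraries, against 49.12, 25.45 and 40.41 FPKM in the white-sarcocarp libraries. The difference was -5.60 on the log2 scale. It was more variable than the bHLH gene, with a coefficient of variation of 57.2% in red and 31.2% in white. Its mean exceeded that of 4.14% of the tested genes in red- and of 74.3% in white-sarcocarp pomelo. In the terms of the MBW complex, the FPKM of the potential bHLH and MYB partners stood in opposite order in the cultivars. The FPKM of Cg5g035630 was 117, 97.4 and 548 times that of Cg4g018810 in the red libraries, and 0.430, 0.894 and 0.464 times in the white libraries. The mean normalized count per unit of FPKM differed between them, at 46.5 for Cg5g035630 and 10.3 for Cg4g018810. Whether counted reads give the same order in white-sarcocarp pomelo was not tested, as the counts are pooled over both cultivars.

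The table holds 3 genes with MYB5 as best hit, and the others did not share this pattern. Cg2g000510 had 8.51, 8.33 and 10.06 FPKM in the red libraries, against 10.99, 10.44 and 8.54 FPKM in the white libraries. These ranges overlapped. Its log2 fold change was -0.15 (SE 0.14, 95% interval -0.48 to 0.18, adjusted p = 0.413 from limma), an interval far from the -5.60 of Cg4g018810. Cg5g031330 stayed under the filter, with 1.36, 0.15 and 0.55 FPKM in the red libraries, against 0, 0.15 and 0.71 FPKM in the white libraries. In red-sarcocarp pomelo Cg2g000510 was thus the most abundant MYB5-type transcript, at 8.60, 8.01 and 38.7 times the FPKM of Cg4g018810. In white-sarcocarp pomelo Cg4g018810 had the highest FPKM of these genes, at 4.47, 2.44 and 4.73 times that of Cg2g000510. The mean normalized count, pooled over both cultivars, was 709.8 for Cg2g000510 and 200.8 for Cg4g018810. Per unit of FPKM, which depends on transcript length, it was 74.9 and 10.3. The order of these genes in white-sarcocarp pomelo thus rests on FPKM alone.

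No gene of the table had TT2, PAP1, PAP2 or MYB114 as best hit, and none had GL3, EGL3 or MYC1, the other Arabidopsis bHLH partners. The MYB genes with the best hit MYB113, MYB23 or WER, 5 in all, were listed at 0 apart from 0.27 FPKM of Cg2g006570 in red replicate 2. Among the MYB genes assigned to the complex by best hit, only those of the MYB5 type therefore reached the filter.

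**Figure D2:**
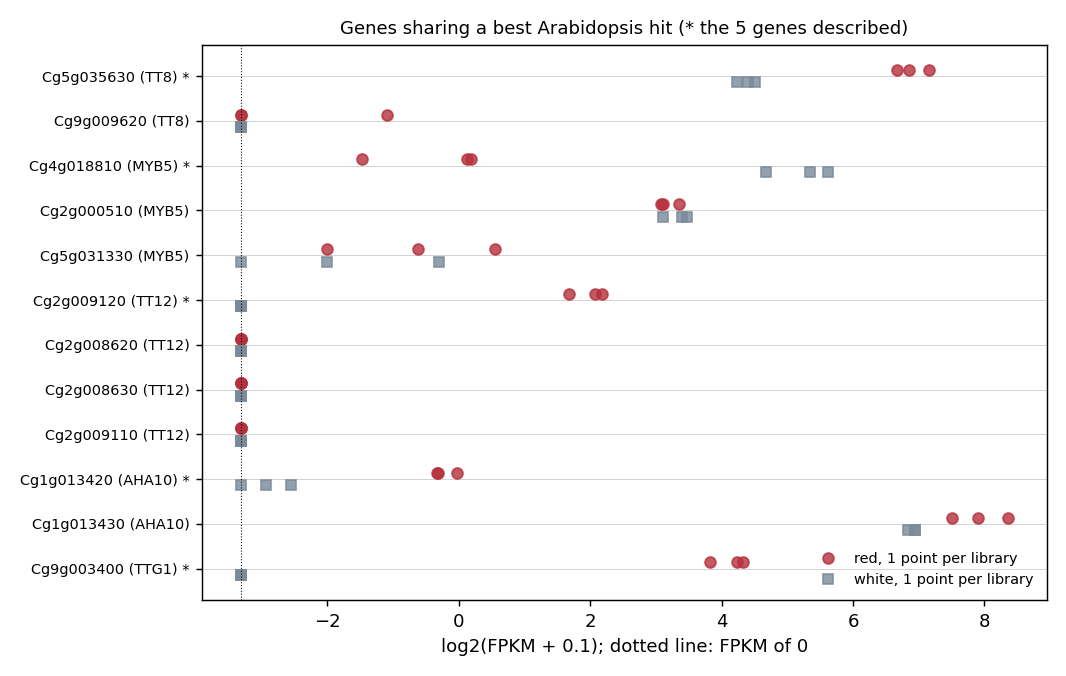
Level of the 12 genes that share a best Arabidopsis hit with the genes described, as log2(FPKM + 0.1) on the horizontal axis, with 1 point per library. Cg2g000510 overlaps between the cultivars where Cg4g018810 does not, and Cg1g013430 lies far above Cg1g013420 in both cultivars.

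The WD40 gene Cg9g003400 had 14.02, 18.78 and 19.96 FPKM in the red-sarcocarp libraries, against a listed value of 0 in each white-sarcocarp library. It passed both thresholds (adjusted p = 8.13e-06 from limma), and its adjusted p lay between 4.10e-06 and 0.000383 over the 15 alternative settings that could test it. The gene entered the test through the red libraries alone, and its white values had no spread. These p-values are therefore given as a description and are no support for the difference. With white-sarcocarp pomelo listed at 0, a fold change cannot be formed. In the count of reads that the authors made separately, the mean normalized count of this gene over all 6 libraries was 0. FPKM came from RSEM, which also assigns reads that fit several transcripts, and counts from featureCounts. Whether reads shared with other transcripts make up the FPKM of this gene was not tested. The difference between the cultivars rests on the FPKM alone. Of the tested genes, 142 (1.00%) had a mean normalized count of 0, and 20 of these passed both thresholds, 3 higher and 17 lower in red. With a mean normalized count of at least 10 required, a setting chosen after seeing the data, Cg9g003400 was not tested.

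For the other 4 genes the 2 measures were present together. The mean normalized count over the 6 libraries was 3270 for Cg5g035630, 200.8 for Cg4g018810, 72.7 for Cg2g009120 and 41.4 for Cg1g013420, values that the authors pooled over both cultivars. The count per unit of FPKM depends on transcript length. It was 46.5 for Cg5g035630, 10.3 for Cg4g018810 and 37.6 for Cg2g009120, inside the 5th to 95th percentile of the tested genes (7.39 to 80.9, median 31.0). For Cg1g013420 it was 104.7, above that range, so more reads were counted for this gene than its FPKM would give at the usual proportion.

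**Figure D3:**
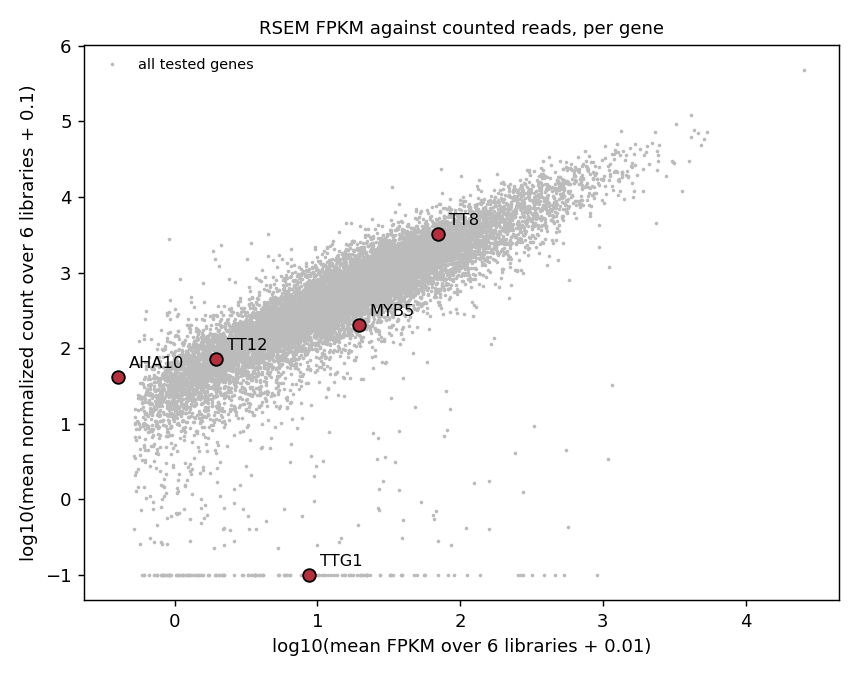
Mean normalized count over the 6 libraries (vertical axis, log10 after adding 0.1) against mean FPKM over the same libraries (horizontal axis, log10 after adding 0.01) for the 14158 tested genes in grey and the 5 genes in red. The TTG1 homolog lies on the row of genes with a count of 0, and the AHA10 homolog lies left of the tested genes because its FPKM is under the filter.

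The WD40 list also held LWD1, a relative of TTG1 that acts in the circadian clock of Arabidopsis. Its pomelo homolog Cg2g009280 had 13.94, 19.51 and 11.9 FPKM in the red libraries, against 11.71, 15.88 and 12.06 FPKM in the white libraries. The cultivars overlapped, with a log2 fold change of 0.18 (SE 0.21, 95% interval -0.31 to 0.66, adjusted p = 0.516 from limma).

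The MATE gene Cg2g009120 had 4.09, 3.11 and 4.41 FPKM in the red-sarcocarp libraries, against a listed value of 0 in each white-sarcocarp library. The difference of the means was 3.87 FPKM. Even in red-sarcocarp pomelo its mean exceeded that of only 21.7% of the tested genes. The 3 other genes with the best hit TT12, Cg2g008620, Cg2g008630 and Cg2g009110, were listed at 0 in every library and had mean normalized counts of 0.185, 2.65 and 0. Another flavonoid transporter of the MATE family in Arabidopsis is FFT, which was the best hit of 2 pomelo genes. The more abundant one, Cg9g027320, had 26.23, 20.94 and 24.72 FPKM in the red libraries, against 36.32, 37.05 and 32.59 FPKM in the white libraries. Its log2 fold change was -0.56 (SE 0.11, adjusted p = 0.00576 from limma). This call was lost when any 1 of the 6 libraries was left out, with an adjusted p between 0.0114 and 0.0245. The other, Cg9g027310, had 0.22, 2.9 and 0.48 FPKM in the red libraries, against 0.49, 0.36 and 0.47 FPKM in the white libraries, and did not pass (log2 fold change 0.62, SE 0.81, adjusted p = 0.565 from limma).

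The pump gene Cg1g013420 had 0.69, 0.88 and 0.7 FPKM in the red-sarcocarp libraries, against 0, 0.03 and 0.07 FPKM in the white-sarcocarp libraries. The difference of the means was 0.723 FPKM, and all red libraries were above all white libraries. As these levels are close to the 2-decimal rounding of the file, no ratio is given. A second gene with AHA10 as best hit was expressed at a much higher level. Cg1g013430 had 238.47, 181.55 and 328.78 FPKM in the red libraries, against 122.83, 122.96 and 114.72 FPKM in the white libraries. It ranked above 95.8% of the tested genes in red- and above 90.7% in white-sarcocarp pomelo. Cg1g013420 contributed between 0.212% and 0.482% of the FPKM of this pair in the red libraries, and between 0 and 0.0610% in the white libraries.

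Cg1g013430, which the rule did not choose, was higher in red-sarcocarp pomelo, with a log2 fold change of 1.01 (SE 0.20, 95% interval 0.55 to 1.48, adjusted p = 0.00574 from limma). The call held in 9 of 16 alternative settings, with an adjusted p between 0.00225 and 0.0232. Leaving out red replicate 1 (0.0232) or any of the white replicates 1, 2 and 3 (0.0198, 0.0207 and 0.0229) ended it, as did median scaling (0.0106), a fit without a mean-variance trend (0.0154) and the replicate number as a block (0.0117). Its direction was the same in each of these settings. Where genes are similar copies RSEM can divide reads between them, so the split of AHA10-type transcript between these genes is uncertain.

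Red replicate 3 had the highest FPKM of the 3 red libraries for Cg5g035630, Cg2g009120, Cg9g003400 and the second AHA10-type gene Cg1g013430, and the lowest for Cg4g018810. The pump gene Cg1g013420 did not follow this, with 0.69, 0.88 and 0.7 FPKM in red replicates 1, 2 and 3. Cg5g035630 and Cg2g009120 had the order replicate 2, replicate 1, replicate 3 from low to high, and 15.4% of all tested genes had it. Both tested genes of seed storage protein type had it, as did 6 of the 14 tested flavonoid enzyme genes, 3 of 5 P-type pump genes, 7 of 13 citrate genes and 1 of 20 vacuolar pump genes described below. The 7 of 12 seed markers with a homolog gave 10 pomelo genes, 3 of them at 0 in every library, namely those of ABI3 and FUS3. Their summed FPKM was 5.81, 5.40 and 25.5 in the red libraries, against 0.0900, 0.370 and 0.760 in the white libraries. Most of the red sum came from 2 legumin-type storage genes. Cg9g008230 had 2.96, 2.61 and 10.56 FPKM in the red libraries, against 0.04, 0.09 and 0 FPKM in the white libraries. Cg9g008240 had 1.91, 1.47 and 12.27 FPKM in the red libraries, against 0.05, 0.16 and 0.19 FPKM in the white libraries. The LEC1 homolog Cg4g013710 went the other way, listed at 0 in the red libraries, against 0, 0.12 and 0.57 FPKM in the white libraries. These seed genes were named after their values were seen. Without red replicate 3, Cg5g035630 differed by 2.37 and Cg4g018810 by -5.06 on the log2 scale, Cg2g009120 by 3.60 FPKM and Cg1g013420 by 0.752 FPKM. In Arabidopsis the TT8, MYB5, TT12 and AHA10 genes are active in the seed coat, and the part of seed RNA in these levels was not tested.

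The sums of marker lists of other tissues differed by smaller factors than that of the seed list. Summed FPKM was 58.2 to 87.2 in the red and 37.7 to 48.2 in the white libraries for 5 genes of green tissue. Without the most abundant of them, the Rubisco small subunit gene Cg4g021720, it was 22.5 to 30.9 in the red and 23.1 to 33.7 in the white libraries. For 21 vascular genes the sum was 37.6 to 48.3 in the red and 28.9 to 49.2 in the white libraries. Without the most abundant of them, Cg3g007120, it was 17.2 to 26.4 in the red and 8.91 to 20.2 in the white libraries. Single vascular genes went both ways. Cg4g023980 (best hit CESA7) had means of 0.03 FPKM in red and 1.18 FPKM in white (log2 fold change -3.21, SE 0.56, adjusted p = 0.00362 from limma). This gene entered the test through the white libraries alone. Cg8g000170 (best hit XCP2) had means of 20.0 FPKM in red and 10.2 FPKM in white and did not pass (adjusted p = 0.0487 from limma). For 12 genes of epidermis and cuticle the sum was 21.3 to 22.9 in the red and 20.7 to 64.2 in the white libraries. The carotenoid genes taken as markers of coloured pulp, 17 in all, summed to 237.2 to 272.3 FPKM in the red and 151.8 to 172.4 FPKM in the white libraries. The higher red sum rested on 1 gene, Cg6g016720, with phytoene synthase (PSY), the entry enzyme of carotenoid synthesis, as best hit, which had 170.71, 165.54 and 147.39 FPKM in the red libraries, against 27.63, 34.23 and 26.19 FPKM in the white libraries. Without it the other 16 genes summed to 89.8 to 104.8 FPKM in the red and 125.6 to 138.2 FPKM in the white libraries. Among them Cg8g013670 (lycopene beta-cyclase) and Cg3g011420 (zeta-carotene desaturase) passed the adjusted p as lower in red-sarcocarp pomelo, with log2 fold changes of -1.31 (SE 0.14, adjusted p = 0.000568 from limma) and -1.74 (SE 0.21, adjusted p = 0.000831 from limma). Other genes of the list were higher in red but did not pass. Cg9g017190, also with lycopene cyclase as best hit, had a log2 fold change of 0.98 (SE 0.25, adjusted p = 0.0166 from limma). The phytoene desaturase genes Cg8g001290 and Cg9g014150 had 0.82 (SE 0.23, adjusted p = 0.0235 from limma) and 0.31 (SE 0.12, adjusted p = 0.0657 from limma). The marker genes named here were picked with their values known.

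The other genes of the pathway were taken from lists by best Arabidopsis hit, and the 5 genes above are left out of the counts below. For the MBW complex and the regulators tied to it, 10 of 23 genes were tested, of which 3 passed the adjusted p as higher in red-sarcocarp pomelo and 0 as lower. Among all tested genes 13.4% passed it with higher and 14.1% with lower expression. The 30% of the list past it was near the share of all tested genes, and none of the 10 reached the fold change threshold as well. The median log2 fold change of the list was 0.61, against 0.02 over all tested genes. The 3 genes were homologs of GL2, CPC and TTG2, which in Arabidopsis are targets of MBW complexes in epidermal cells or the seed coat.

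Cg1g014500, the homolog of the homeodomain factor GL2, had 108.67, 107.82 and 102.97 FPKM in the red libraries, against 41.37, 42.68 and 39.61 FPKM in the white libraries. The replicates were close, and the log2 fold change was 1.37 (SE 0.07, adjusted p = 3.04e-05 from limma). Cg6g003030, the homolog of the WRKY factor TTG2, had 17.87, 20.04 and 22.03 FPKM in the red libraries, against 10.41, 9.26 and 7.24 FPKM in the white libraries. Its log2 fold change was 1.16 (SE 0.16, adjusted p = 0.00128 from limma). The petunia relative of TTG2 takes part in vacuolar acidification. Cg2g018090, with the small MYB repressor CPC as best hit, had 379.63, 371.84 and 470.73 FPKM in the red libraries, against 235.68, 205.21 and 170.32 FPKM in the white libraries, with a log2 fold change of 1.00 (SE 0.15, adjusted p = 0.00171 from limma). All 3 passed the adjusted p in all 16 alternative settings. Cg6g003030 was named after its values were seen.

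Of the flavonoid and proanthocyanidin enzymes, 14 of 45 genes were tested and 23 were listed at 0 in all 6 libraries. The adjusted p was passed by 7 genes that were higher in red-sarcocarp pomelo and 0 that were lower, and 3 of the 7 also reached the fold change threshold. The 7 are 50% of the tested genes of the list, against 27.5% of all tested genes, of which 6.76% met both thresholds. Without red replicate 1 the number of higher genes was 4, and without red replicate 1 or 2 only 1 reached both thresholds. The median log2 fold change of the list was 1.13. The genes past both thresholds were the chalcone synthase type genes Cg2g009540 and Cg3g016190 and the cytochrome P450 gene Cg5g007630, with F3'H, a flavonoid hydroxylase, as best hit. Cg3g016190 had 6.84, 7.22 and 3.34 FPKM in the red libraries, against 0.88, 0.51 and 1.83 FPKM in the white libraries (log2 fold change 2.41, SE 0.48, adjusted p = 0.00621 from limma). It did not pass when red replicate 1 (0.0292) or 2 (0.0258) or white replicate 1 (0.0228) or 2 (0.0179) was left out, nor without a mean-variance trend (0.0132) or with the replicate block (0.0211). Cg2g009540 stood at a lower level still, with 2.99, 2.63 and 2.5 FPKM in the red libraries, against 0.72, 0.05 and 0.11 FPKM in the white libraries (log2 fold change 3.24, SE 0.64, adjusted p = 0.00597 from limma). It passed the adjusted p in 9 of 16 alternative settings, and did not without red replicate 1 (0.0278), 2 (0.0222) or 3 (0.0179) or without white replicate 2 (0.0162) or 3 (0.0211). Both genes thus stayed at a few FPKM. Cg5g007630 had 2.56, 3.81 and 2.55 FPKM in the red libraries and was listed at 0 in the white libraries (adjusted p = 0.000226 from limma). It passed the adjusted p in all 16 alternative settings, though with a pseudocount of 1 it no longer reached the fold change threshold. Cg5g007630 and Cg2g009540 entered the test through the red libraries alone. The white values of Cg5g007630 had no spread, so its p-values are given as a description and are no support for the difference. The 2 most abundant genes of the list, homologs of FLS1 and F3H, did not pass. Cg1g009050 (flavonol synthase) had a log2 fold change of 0.10 (SE 0.17, adjusted p = 0.648 from limma) and Cg1g002060 (flavanone 3-hydroxylase) of 0.55 (SE 0.26, adjusted p = 0.121 from limma). Other abundant genes were higher in red, and are named with their values known. Cg7g003710 (chalcone isomerase family) had means of 183.4 FPKM in red and 60.2 FPKM in white (log2 fold change 1.61, SE 0.11, adjusted p = 0.000107 from limma). Cg5g011190 (best hit F3'H) had means of 301.7 and 107.9 FPKM and narrowly did not pass (log2 fold change 1.39, SE 0.31, adjusted p = 0.01001 from limma).

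Of the pathway steps that the MBW complex controls in Arabidopsis, only some had a gene with FPKM above 0. Cg5g009430, the homolog of LDOX, which makes anthocyanidins, had 45.48, 37.14 and 63.21 FPKM in the red libraries, against 24.58, 19.88 and 18.08 FPKM in the white libraries. This gave a log2 fold change of 1.19 (SE 0.21, adjusted p = 0.00345 from limma). Leaving out red replicate 1 (0.0147) or white replicate 2 (0.0156) or 3 (0.0149) ended the call. The genes with DFR, BAN and TT19 as best hit, Cg3g023030, Cg2g040810 and Cg6g016710, were listed at 0 in all 6 libraries. Their mean normalized counts were 0, 0.159 and 0.258. DFR precedes LDOX in the pathway, BAN (anthocyanidin reductase) makes the proanthocyanidin unit, and TT19 is a glutathione transferase needed for transport to the vacuole. The genes of this paragraph were named after their values were seen.

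Besides Cg1g013420, 8 genes had a P-type proton pump of the AHA family as best hit, and 5 of them were tested. Of these 5, 3 passed the adjusted p as higher in red-sarcocarp pomelo and 0 as lower, and none reached the fold change threshold. The 3 are 60% of the tested genes of the list, against 27.5% of all tested genes. The median log2 fold change was 0.55. Cg4g021540 (AHA1) had 133.93, 131.31 and 165.65 FPKM in the red libraries, against 40.65, 38.93 and 51.63 FPKM in the white libraries, with a log2 fold change of 1.72 (SE 0.14, adjusted p = 0.000178 from limma). This gene was named after its values were seen. Cg6g023820 (AHA4) had 144.77, 159.04 and 147.51 FPKM in the red libraries, against 104.07, 108.78 and 95.78 FPKM in the white libraries, with a log2 fold change of 0.55 (SE 0.08, adjusted p = 0.00174 from limma). The third gene was Cg1g013430. AHA-type pumps work mainly at the plasma membrane, and FPKM does not show at which membrane a pump is placed.

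The vacuolar proton pumps acidify the vacuole in most plant cells. Of 26 genes for subunits of the vacuolar ATPase and for the vacuolar pyrophosphatases, 20 were tested, of which 1 passed the adjusted p as higher in red-sarcocarp pomelo and 5 as lower. Together they are 30% of the tested pump genes, near the 27.5% of all tested genes. The median log2 fold change was -0.20. The number of higher genes was 2 without red replicate 3. The lower genes numbered 3 when replicate 1 or 3 of either cultivar was left out. The largest decrease among these was that of Cg8g020940, for the ATPase subunit a1, with 16.67, 15.14 and 18.38 FPKM in the red libraries, against 34.64, 30.68 and 36.74 FPKM in the white libraries. Its log2 fold change was -1.02 (SE 0.11, adjusted p = 0.000526 from limma), and it was named after its values were seen. Cg8g008150, the homolog of subunit a3, did not pass (log2 fold change -0.12, SE 0.07, adjusted p = 0.190 from limma). The list was taken by best hit, and FPKM does not show at which membrane these pumps are placed. The higher gene was Cg2g032380, a pyrophosphatase with AVP1 as best hit, with 3.88, 3.89 and 2.05 FPKM in the red libraries, against 0.1, 0.42 and 0.31 FPKM in the white libraries (log2 fold change 3.22, SE 0.47, adjusted p = 0.00174 from limma). It passed both thresholds, but did not pass without red replicate 1 (0.0115), and it entered the test through the red libraries alone. The most abundant genes, Cg6g002040 (subunit G) and Cg3g023640 (subunit c), did not pass, with log2 fold changes of 0.10 (SE 0.17, adjusted p = 0.658 from limma) and -0.17 (SE 0.09, adjusted p = 0.165 from limma).

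Of 13 genes for citrate synthesis, use and vacuolar transport, all tested, 2 passed the adjusted p as higher in red-sarcocarp pomelo and 2 as lower, together 30.8% and also near the share of all tested genes. The median log2 fold change was -0.16. Both numbers were 1 without red replicate 1 or 2 or without white replicate 1 or 3. They were 1 higher and 3 lower without red replicate 3, and 2 higher and 1 lower without white replicate 2. Cg2g046060, the homolog of the tonoplast dicarboxylate transporter TDT, had 212.41, 196.53 and 238.09 FPKM in the red libraries, against 458.61, 406.55 and 363.04 FPKM in the white libraries. This gave a log2 fold change of -0.92 (SE 0.11, adjusted p = 0.000907 from limma). Cg1g001140, an aconitase gene named after its values were seen, had 170.99, 168.73 and 166.9 FPKM in the red libraries, against 93.23, 93.55 and 83.28 FPKM in the white libraries. The log2 fold change was 0.91 (SE 0.07, adjusted p = 0.000188 from limma). Both calls held in all 16 alternative settings. Cg3g006900, an isocitrate dehydrogenase gene and the most abundant of the list, did not pass (log2 fold change 0.12, SE 0.12, adjusted p = 0.428 from limma).

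**Figure D4:**
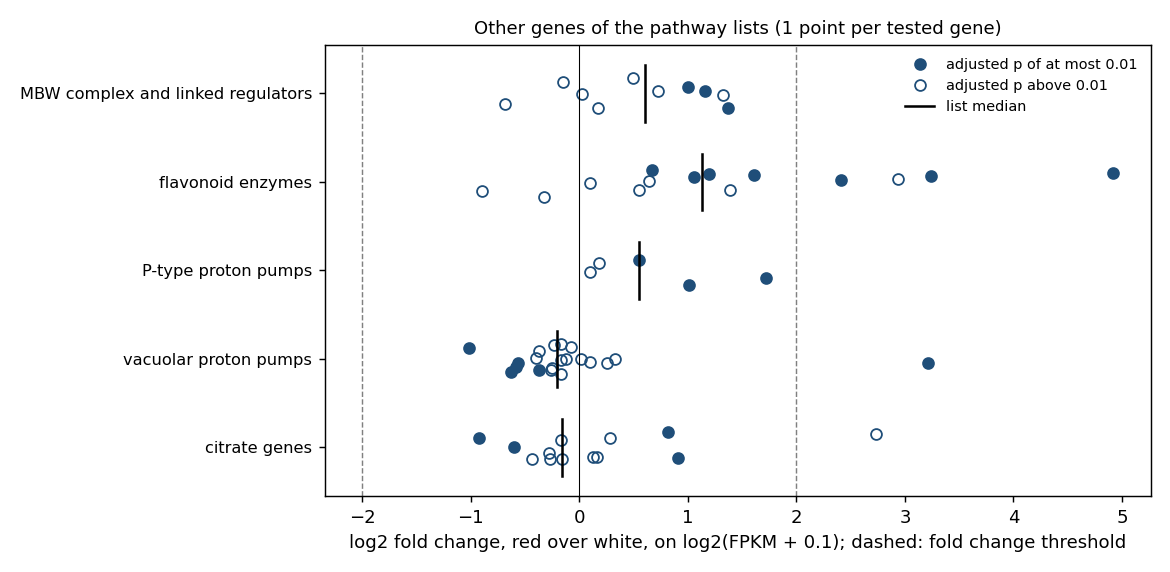
Log2 fold change, red over white, of each tested gene of the 5 lists (horizontal axis, on log2(FPKM + 0.1)), with filled points past an adjusted p of at most 0.01, black bars at the list median and dashed lines at the fold change threshold of 2 in size. The list medians are 0.61, 1.13, 0.55, -0.20 and -0.16 from the top, against 0.02 over all tested genes.

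The genes whose profile over the 6 libraries was most like that of each gene were found by the root mean square difference of log2(FPKM + 0.1), each gene centred on its own mean. As the 3 nearest genes were picked from 14158, a close match is a description. For Cg5g035630 they were Cg9g005650 (a PPR protein, 0.14), Cg7g022880 (annotated as a choline transporter family protein, 0.15) and Cg4g012780 (a GDSL-like lipase, 0.15). For Cg4g018810 they were Cg2g026390 (cation exchanger 2, 0.28), Cg2g023840 (an LRR protein, 0.34) and Cg1g009480 (an F-box protein, 0.40), the last with a mean normalized count of only 3.28. Cation exchanger 2 moves calcium and other cations into the vacuole in exchange for protons in Arabidopsis, and Cg2g026390 had 0.13, 0.08 and 0 FPKM in the red libraries, against 10.94, 7.12 and 9.88 FPKM in the white libraries. It was the one vacuolar transporter among these neighbours.

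For Cg2g009120 the nearest were Cg2g001220 (0.14), Cg2g016980 (a TIR-NBS-LRR protein, 0.16) and Cg2g043510 (a xanthine/uracil permease, 0.19), all listed at 0 in the white libraries. For Cg1g013420 they were Cg3g020900 (a phosphoglycerate dehydrogenase, 0.09), Cg2g015270 (0.14) and Cg1g020450 (a serine-rich protein, 0.16). For Cg9g003400 they were Cg5g042470 (0.17), Cg5g012630 (0.28) and Cg9g028510 (a cyclic nucleotide gated channel, 0.41), again listed at 0 in the white libraries. None of the 5 genes had another of them among its 3 nearest.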

How the data were processed

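Per the paper and the submitters' processing notes, the authors trimmed reads with Trimmomatic, mapped them to the C. maxima genome with STAR 2.7.1a, and deposited FPKM per gene and library from RSEM 1.3.1, rounded to 2 decimals. The mean normalized count (a signal pooled over the 6 libraries) was deposited by the authors from featureCounts 2.0.1 and DESeq2. The deposited fold changes and p-values of the authors' comparison were not used, nor was the subset table of their DEGs. No FPKM column was left out (0 unused).

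Tested genes were compared with limma 3.58.1 in R 4.3.3, in a model of cultivar alone whose variances were moderated along a mean-variance trend. The thresholds are those of the paper, whose count test could not be rerun on FPKM. The fit was tested on simulated data. Tables were made in Python 3.11.15.

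The members and lists were chosen with earlier results of these data known. Named were the members, genes sharing their best hits, list genes past both thresholds, the 2 most abundant of each list and the 3 nearest profiles. Alternatives were pseudocounts of 0.01, 0.5 and 1, filters, scaling, moderation, a replicate block and leaving out each library. No reference genome or sequence was used here.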

Additional observations from a re-analysis of the deposited data

Results flagged for a closer look

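Several proton pump genes were listed at 0 FPKM in all 6 libraries although reads were counted for them, a signal outside the FPKM comparison. The mean normalized count over the 6 libraries was 1738 for Cg5g001790 (vacuolar ATPase subunit E), 61.9 for Cg7g012900 (subunit H) and 17.3 for Cg2g032390 (a pyrophosphatase with AVP1 as best hit). They were among 2154 genes of the table listed at 0 FPKM in all libraries with a mean normalized count above 0. Their direction between the cultivars could not be had from a pooled count.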

How the results depend on the processing

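The direction of all 5 genes held in every alternative that could be run for them. Since their red and white ranges were apart, leaving out a library or changing the pseudocount, filter or moderation could not reverse it. Cg5g035630 lay between 2.37 and 2.62 on the log2 scale. Cg4g018810 lay between -5.89 and -4.46, the last with a pseudocount of 1. Leaving out libraries gave 3.60 to 4.25 FPKM for Cg2g009120 and 0.662 to 0.757 FPKM for Cg1g013420. With a pseudocount of 1 the genes past both thresholds numbered 250 higher and 280 lower (against 440 and 517), with 0 among flavonoid enzymes and 0 among vacuolar pumps. Quantile normalization gave 2 higher vacuolar pump genes. Without a mean-variance trend, 1 flavonoid enzyme passed both thresholds and 3 vacuolar pump genes were lower. With libraries left out in turn, genes past the adjusted p numbered 938 to 1689 higher and 1136 to 1706 lower (against 1899 and 1998), with the lowest values without red replicate 1. Higher genes were also few without red replicate 2 (1147) or white replicate 2 (1227), and lower genes without white replicate 2 (1179) or 3 (1291). The flavonoid enzymes then numbered 4 to 7 higher, 0 to 1 lower and 1 to 2 past both thresholds. Vacuolar pumps numbered 0 to 2 higher, 3 to 5 lower and 0 to 1 past both, citrate genes 1 to 2 higher and 1 to 3 lower, and the MBW list 0 to 1 lower. Fewer libraries were fitted there. In the other alternatives the cause was not tested.

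Same-numbered libraries of the cultivars did not deviate together (correlations of 0.000385, 0.0309 and -0.0446), so no variation shared by replicate number was seen. Whether same-numbered samples were collected or prepared together cannot be told from this. With the replicate block, 369 genes were higher and 435 lower at both thresholds, and 1 citrate gene was higher. Requiring a mean normalized count of at least 10, a setting chosen after seeing the data, gave 426 higher and 482 lower.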
